A study of Mus musculus and Rattus norvegicus with 26 samples.

Results

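Centrosomal, kinetochore and ciliary genes were examined for intron sequence retained in transcripts of mouse and rat dendrites, neuronal somas and single cells. Members were all listed genes whose symbol began with Cep, Ift, Bbs, Haus or Tubgcp and a digit, or with Cenp, except Haus6. The rule found 65 of the 13695 genes in the 6 lists, with 63 of 12467 in the mouse lists and 25 of 5712 in the rat lists. By family, the mouse lists held 19 Cep, 15 Cenp, 12 Ift, 6 Bbs, 6 Haus and 5 Tubgcp genes.

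The study sequenced RNA from neurites and cell bodies to find cytoplasmic intron-sequence retaining transcripts (CIRTs), which are RNAs that still carry intron sequence outside the nucleus. Hippocampal neurons were taken from C57BL/6 mice and Sprague-Dawley rats at embryonic day 18. They were then grown in culture before dendrites and somas were cut from them by hand. Single cells, chosen by morphology in the first case, came from interscapular brown adipose tissue (BAT) of CD-1 mice at embryonic day 17.5 and from heart ventricles of hemizygous transgenic C57BL/6 mice at embryonic day 14.5. Each list pooled the libraries of its group, namely 3 of mouse dendrites, 3 of mouse somas, 6 of BAT cells, 9 of cardiomyocytes, 2 of rat dendrites and 3 of rat somas by the labels. The RNA of all groups went through 3 rounds of aRNA amplification, a linear copying that starts from a poly(T) primer. The cardiomyocytes carried the Fucci probe mAG-hGem (1/110), a fluorescent cell cycle reporter driven by the cytomegalovirus promoter, and were sorted for fluorescence and viability. The dendrite libraries pooled many dendrites, each soma library came from a single cell, and axons were not told apart from dendrites. The somas, BAT cells and cardiomyocytes still held the nucleus, so that unspliced nuclear RNA cannot be told apart from cytoplasmic RNA there, and for these cells the study kept to contigs of at most 400 nt, whereas contigs of all lengths are used here unless a limit is named. Each group was thus 1 value with no error between libraries, and no test between groups was possible.

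Centrosomes organise microtubules around a pair of centrioles, and the mother centriole of a resting cell can dock at the membrane and template a primary cilium. Cep proteins build centrioles and their appendages, the gamma-tubulin ring complex (Tubgcp) starts microtubules, and augmin (Haus) starts new ones along existing microtubules. Intraflagellar transport (Ift) trains and the BBSome (Bbs) move cargo along the cilium, whereas Cenp proteins assemble the centromere and kinetochore that hold chromosomes on the spindle. Neurons and cardiomyocytes of these stages can carry a primary cilium, and mature neurons no longer divide.

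The lists gave a raw read count per intron, which summed to between 1007530 reads in rat dendrites and 17858440 in BAT cells. A gene missing from a list is called not listed, since the lists hold no zero values. Marker genes fixed for each cell type partly matched the labels. Neuron markers had 7 of 8 genes listed in mouse somas and 6 of 8 in dendrites, brown fat markers 5 of 6 in BAT cells and cardiomyocyte markers 6 of 7 in cardiomyocytes. Map2 was in none of the lists, Ppargc1a was missing from the BAT list and Nkx2-5 from the cardiomyocyte list. The BAT list also held 6 of 8 neuron markers with 22445 reads in all, and 5 of 7 cardiomyocyte markers with 49637 reads. The mouse dendrite list held 4 of 6 brown fat markers with 643 reads and 5 of 7 cardiomyocyte markers with 1601 reads, and rat dendrites held 3 of 8 neuron markers.

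Sequences are shown for 3 of the short regions of member introns that at least 3 mouse lists covered, since these are the pieces of intron that recurred between cell types. They are read from the NCBIM37 (mm9) genome on the strand of the gene, 5′ to 3′. Capitals in the first sequence mark every copy of the most frequent stretch of 10 bases in that region, and the others are in lower case throughout because they hold no run of 6 or more adenines or thymines.
Ift88 intron 23, chr14:58124018-58124282, plus strand: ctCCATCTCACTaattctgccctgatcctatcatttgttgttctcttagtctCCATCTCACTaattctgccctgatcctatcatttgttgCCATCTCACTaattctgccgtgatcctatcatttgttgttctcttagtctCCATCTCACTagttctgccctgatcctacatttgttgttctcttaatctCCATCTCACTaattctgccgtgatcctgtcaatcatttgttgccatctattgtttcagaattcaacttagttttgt
Cenpv intron 2, chr11:62349584-62349776, minus strand: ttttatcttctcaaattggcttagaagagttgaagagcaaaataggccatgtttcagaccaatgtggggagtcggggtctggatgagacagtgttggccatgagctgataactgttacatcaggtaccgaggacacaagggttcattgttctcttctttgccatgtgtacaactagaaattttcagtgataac
Cenpv intron 3, chr11:62341645-62341899, minus strand: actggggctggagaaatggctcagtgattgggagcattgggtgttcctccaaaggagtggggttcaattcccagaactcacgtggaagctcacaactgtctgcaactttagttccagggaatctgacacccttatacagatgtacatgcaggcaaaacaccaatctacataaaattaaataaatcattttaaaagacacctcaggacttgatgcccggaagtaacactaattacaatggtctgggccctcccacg

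The Ift88 region of 265 nt held 5 copies of its 10-base stretch and was covered in dendrites, BAT cells and cardiomyocytes. A tract of 13 adenines began 55 bases after it, and the dendritic contig reached past that tract. The Cenpv regions of introns 2 and 3 were each followed by a tract of at least 10 adenines after 1 base and after 2 bases, respectively. Of the 7 regions of at most 300 nt that were read, these 3 had such a tract within 300 nt downstream and the other 4, not shown, had none.

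The centrosomal proteins (Cep) formed the largest family of members, with 16 genes in mouse dendrites, 12 in somas, 16 in BAT cells and 13 in cardiomyocytes. Values are given as reads summed over the introns of a gene, always in the order mouse dendrites, mouse somas, BAT cells and cardiomyocytes. Since introns differ in length, genes are not compared with each other. Reads show the depth behind a value, and lists are compared in RPM, the reads per 1000000 reads of the list, because the mouse lists held 3086576, 1855447, 17858440 and 12201042 reads in this order. The order of a gene's lists can change with the scale. Cep152, a scaffold of centriole duplication, carried 3164, 219, 2613 and 5467 reads. Its partner Cep63 carried 709, 2, 26 and 2 reads, so that most of its reads came from dendrites. Cep192, which recruits material around the centrioles, carried 2091, 344, 1135 and 501 reads.

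Among genes of the mother centriole, Cep164, Cep170, Cep110 and Cep350 were listed in every mouse group. Cep164, needed for docking at the membrane, carried 149, 382, 113 and 132 reads. Cep170 of the subdistal appendages carried 1612, 525, 3140 and 1749 reads, which were 522, 283, 176 and 143 RPM, so that dendrites were highest by RPM and BAT cells by reads. In dendrites its neighbouring introns 14 and 15 both had 754 reads. Cep110, also named centriolin, carried 578, 48, 193 and 135 reads. Cep350, which anchors microtubules, carried 373, 2, 807 and 42 reads, and the 2 reads in somas may be a single read pair.

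Cep290, a gatekeeper at the base of the cilium, was in all 6 lists. It carried 93, 165, 5840 and 2216 reads in the mouse groups, 12 in rat dendrites and 3298 in rat somas. In mice 20 of its 52 introns appeared in at least 1 list, the most of any member, ahead of Cep192 with 17 of 45 and Cep350 with 14 of 37. Cep120, which acts in centriole elongation, carried 212, 28, 3100 and 1774 reads and a further 1164 in rat somas. Cep57l1 carried 28, 69, 5120 and 534 reads, nearly all of the BAT reads in intron 7.

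Some Cep genes were almost private to 1 group. Cep97, a partner in the cap that restrains ciliogenesis, had 3861 reads in mouse dendrites and was in no other mouse list, but it had 418 reads in rat somas. Of its dendritic reads, 3855 fell in intron 6, which carried the longest member contig of that list at 1859 nt. Cep135, a core centriole protein, had 3897 reads in cardiomyocytes, against 3 in BAT cells. Cep70 had 9446 reads in rat somas, all in intron 15, but between 4 and 76 in the 4 lists of mouse dendrites, BAT cells, cardiomyocytes and rat dendrites.

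The kinetochore and centromere proteins (Cenp) were represented by 12 genes in mouse dendrites, 3 in somas, 13 in BAT cells and 8 in cardiomyocytes. Cenpc1, which links centromeric chromatin to the outer kinetochore, was in all 6 lists. It carried 6148, 4, 236 and 1216 reads in the mouse groups, 30 in rat dendrites and 166 in rat somas. Dendrites were thus far above the other mouse groups. Its intron 7 held 6090 of the dendritic reads, or 18.4% of all member reads of that list. That intron had 2 dendritic contigs, and the reads are given for the intron as a whole. The contig of 465 nt included 108 nt in which a stretch of 10 bases occurred 18 times. The effect of this repeat on the reads was not tested.

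Cenpf, a large protein of the kinetochore corona, carried 951, 22, 44 and 4 reads, and its dendritic contig touched an annotated exon of the same gene. Cenpe, a kinesin motor, had 197 reads in dendrites and 204 in BAT cells and was not listed in somas or cardiomyocytes. Cenpv carried 606, 2556, 4688 and 797 reads, and all 4 of its introns appeared in at least 1 mouse list. Among the inner kinetochore genes, Cenpk had 5 reads in dendrites, 53 in BAT cells and 7999 in cardiomyocytes. Cenpq had 6306 reads, all in intron 4, in the BAT list alone. Cenpi had 486 reads in mouse dendrites, 1367 in BAT cells, 4 in rat dendrites and 19031 in rat somas. These rat soma reads all fell in intron 18 and made up 45.7% of the member reads of that list.

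The transport genes (Ift) were spread over the groups, with 10 genes in each of the mouse dendrite, soma and BAT lists and 8 in cardiomyocytes. Ift88, a core subunit of the anterograde train, was in all 6 lists. It carried 2048, 24, 467 and 547 reads in the mouse groups, 248 in rat dendrites and 46 in rat somas. Both species therefore had more Ift88 reads in dendrites than in somas. Ift80, another anterograde subunit, carried 491, 2, 29712 and 22 reads, with 515 in rat dendrites. Its intron 8 held 26577 of the BAT reads, 33.9% of all member reads of BAT cells, in 3 contigs. Ift81, which binds tubulin with its partner Ift74, carried 1294, 80, 2681 and 4495 reads, or 419, 43.1, 150.1 and 368 RPM, and 3328 reads in rat somas.

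Ift74 carried 230, 12, 35 and 154 reads. Ift172 carried 40, 296, 52 and 52 reads, highest in somas. Ift27, a small GTPase of the same train, had 2966 dendritic reads in intron 1, with 4 reads in somas and 11 in cardiomyocytes. Ift20, which also works at the Golgi, was missing from mouse dendrites, but was in somas, BAT cells and cardiomyocytes with 84, 571 and 1089 reads, and in rat dendrites with 98. Of the retrograde subunits, Ift122 had 20 reads in dendrites, 208 in somas and 727 in BAT cells, and Ift140 had 69, 10 and 2 in dendrites, BAT cells and cardiomyocytes.

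Of the 6 BBSome genes, 5 were in mouse dendrites with 2333 reads in all, which was 756 RPM. The RPM of the family was 21.6 in somas, 8.18 in BAT cells and 40.6 in cardiomyocytes, and in rats it was 7.94 in dendrites and 122 in somas. Bbs9 accounted for 1508 of the dendritic reads, all in intron 4, in a contig that also touched an annotated exon of the gene, and had 2 reads in BAT cells. Bbs4 had 260 reads over 5 introns in dendrites, 4 in somas and 493 in cardiomyocytes. Bbs7 had 354 reads in dendrites and 33 in somas, and Bbs5 had 205 in dendrites, 18 in BAT cells and 2 in cardiomyocytes. Bbs2 had 6 reads in dendrites and 126 in BAT cells. Bbs1 was listed with 3 reads in mouse somas and 166 in rat somas.

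Of the 6 augmin genes, 4 were in more than 1 list. Haus4 was the only one in 3 mouse lists, with 1062 reads in dendrites, 67 in BAT cells and 48 in cardiomyocytes. Haus2 had 6 reads in dendrites and 184 in somas. Haus1 had 2 reads in mouse dendrites, 11 in cardiomyocytes and 128 in rat dendrites, and it was missing from both soma lists. Haus5 with 408 reads and Haus8 with 4 were in the BAT list alone. Haus7 had 2 reads in BAT cells and 45 in rat dendrites.

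The summed level of the gamma-tubulin complex genes was 142 RPM in mouse dendrites, 441 in somas, 299 in BAT cells and 322 in cardiomyocytes. The soma sum came mostly from Tubgcp4 and Tubgcp6, and Tubgcp5 was higher in dendrites, at 91.0 RPM against 51.2 in somas. Tubgcp2 carried 22, 66, 3439 and 4 reads. Tubgcp4 carried 132, 426, 562 and 10 reads, and 6 of its mouse contigs overlapped an annotated exon of that gene or of the neighbouring Trp53bp1. Tubgcp5 carried 281, 95, 274 and 109 reads, with 4318 in rat somas. Tubgcp6 was listed with 1 intron, number 3, at 232 reads in somas, 61 in BAT cells and 3808 in cardiomyocytes, and Tubgcp3 with 2 reads in dendrites and 995 in BAT cells. Rat dendrites listed no Tubgcp gene, and rat somas listed no Haus gene.

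**Figure D1:**
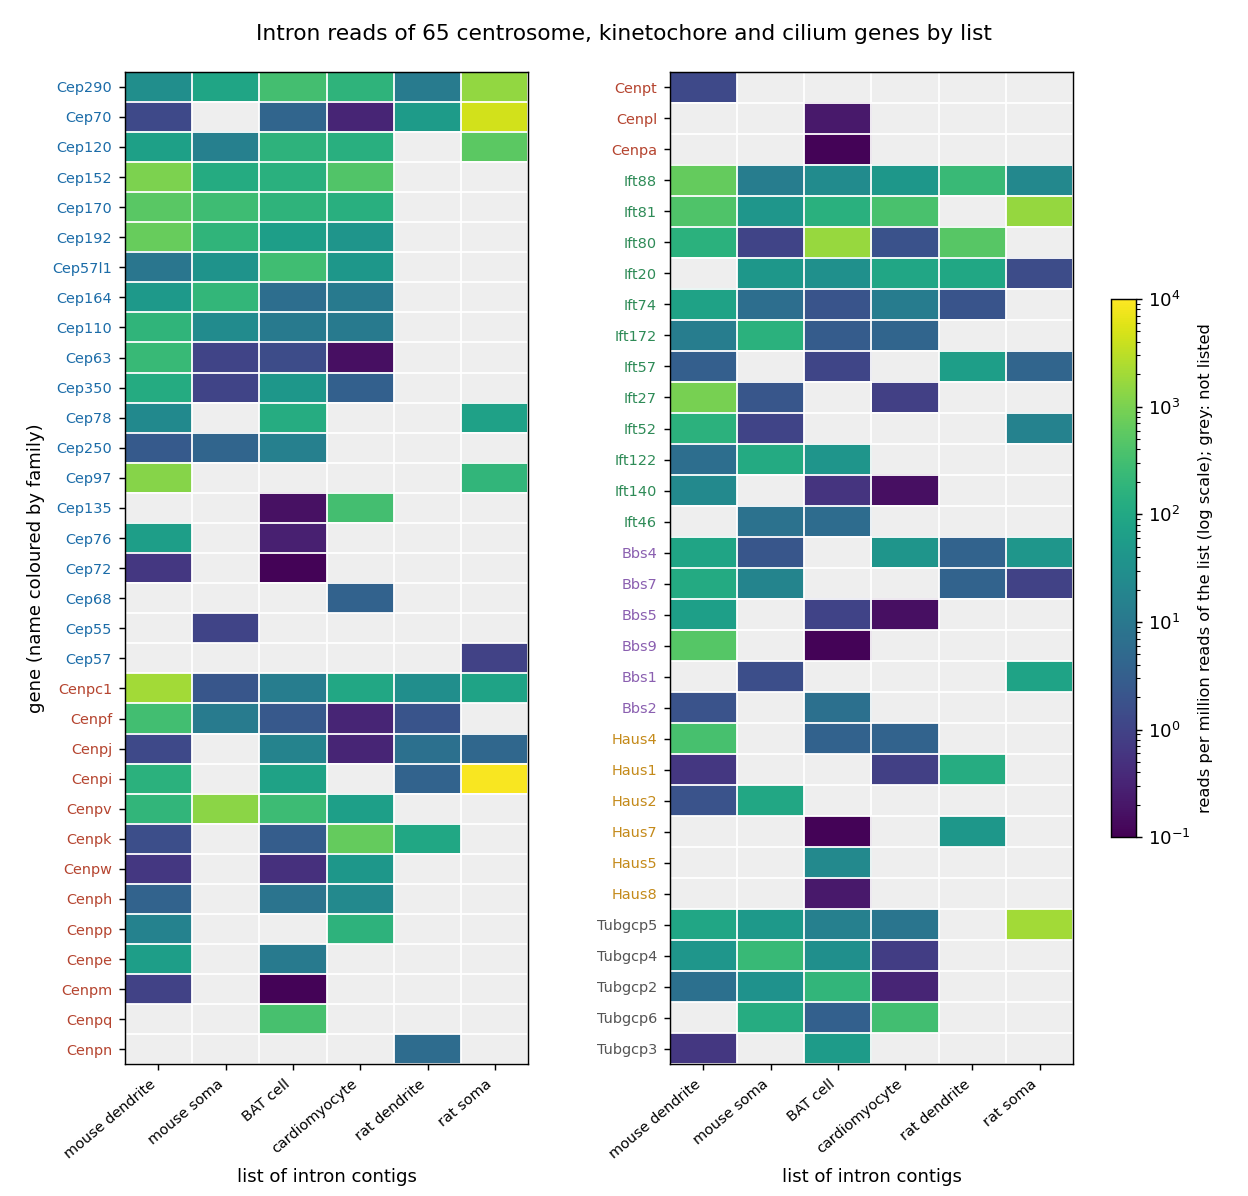
Reads per 1000000 reads of the list (RPM) for each of the 65 genes (rows, names coloured by family) in the 6 lists (columns), on a logarithmic colour scale, with grey for not listed. Rows are to be read across, since introns differ in length. Cenpc1, Cep290 and Ift88 are coloured in all 6 columns, and Cenpi reaches the top of the scale in rat somas.

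Mouse dendrites were compared with mouse somas by the introns listed in each. These are separate samples, so the ratios do not measure movement of RNA out of the cell body. Of the 63 mouse members, 50 (79.4%) were listed in dendrites and 33 (52.4%) in somas, where all mouse genes gave 69.0% and 47.3%. Among the 55 members in either list, 28 were in both, 22 in dendrites alone and 5 in somas alone. For all genes in either list, 39.6% were in dendrites alone and 11.8% in somas alone.

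Among genes in both lists the members leaned towards dendrites. Of the 28 members in both, 15 were at least 4-fold higher in dendrites in RPM, where 33.2% of all genes were. At least 4-fold higher in somas were 8 of 28, where 24.9% of all genes were. The median log2 ratio of dendrites over somas was 2.44 for members and 0.27 for all genes. Scaled by the reads sequenced in the libraries, 16 members were higher in dendrites (37.8% of all genes) and 4 in somas (21.2% of all genes), and the median of all genes moved to 0.74 and that of members to 2.91. Each soma library came from a single cell and each dendrite library from many dendrites. Compartment, starting material and amount of RNA cannot be told apart here.

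The 5 largest ratios towards dendrites were those of Cenpc1, Ift27, Cep63, Ift52 and Ift80. Cenpc1 was at 1992 RPM in dendrites and 2.16 in somas, a 924-fold difference with a 95% counting interval of 361 to 3392. Ift27 was at 961 and 2.16 (446-fold, interval 174 to 1637) and Cep63 at 229.7 and 1.08 (213-fold, interval 58.8 to 1763). Ift52, an anterograde subunit, was at 162 and 1.08, with 499 and 2 reads. All of these rest on 2 to 4 soma reads, so the sizes of the ratios are loose. Ift88 had more reads behind it, 664 against 12.9 RPM, a 51.3-fold difference with an interval of 34.4 to 80.2. Intervals cover counting error only, not the spread between cells or amplifications.

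Towards somas the 5 largest were Haus2 (51.0-fold, interval 23.0 to 141), Ift122 (17.3-fold, interval 10.9 to 28.9), Ift172 (12.3-fold, interval 8.83 to 17.6), Cenpv (7.02-fold, interval 6.42 to 7.68) and Tubgcp4 (5.37-fold, interval 4.41 to 6.58). The study's 400 nt limit for somas removes the only Haus2 contig there (642 nt, 184 reads). It also removes Tubgcp4 intron 9 (592 and 645 nt, 423 of 426 reads). Of Cenpv it removes intron 1 (895 and 454 nt, 1612 of 2556 reads). At that limit in all lists, 13 of 24 members were higher in dendrites (33.8% of all genes) and 6 in somas (25.1%). All 3 of the Cenp genes in both lists were past 4-fold, Cenpc1 and Cenpf towards dendrites and Cenpv towards somas. Markers of other cell types differed between these lists in both directions. Cycling cell markers had 6 of 8 genes and 898 RPM in dendrites against 4 of 8 and 21.6 in somas, with Mki67 and Cdk1 in neither list. Astrocyte markers had 4 of 5 and 966 RPM in dendrites, mostly Aldh1l1, against 3 of 5 and 142 in somas. Cardiomyocyte markers were at 519 RPM in dendrites and 10.2 in somas, and brown fat markers at 208 and 1.08. Higher in somas were the markers of neurons, at 1278 RPM in dendrites and 7887 in somas, of endothelium, at 7.78 and 437, and of microglia, at 70.3 and 130. Oligodendrocyte markers were at 1.94 and 1.08 RPM. The part of these cells in the result was not tested.

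**Figure D2:**
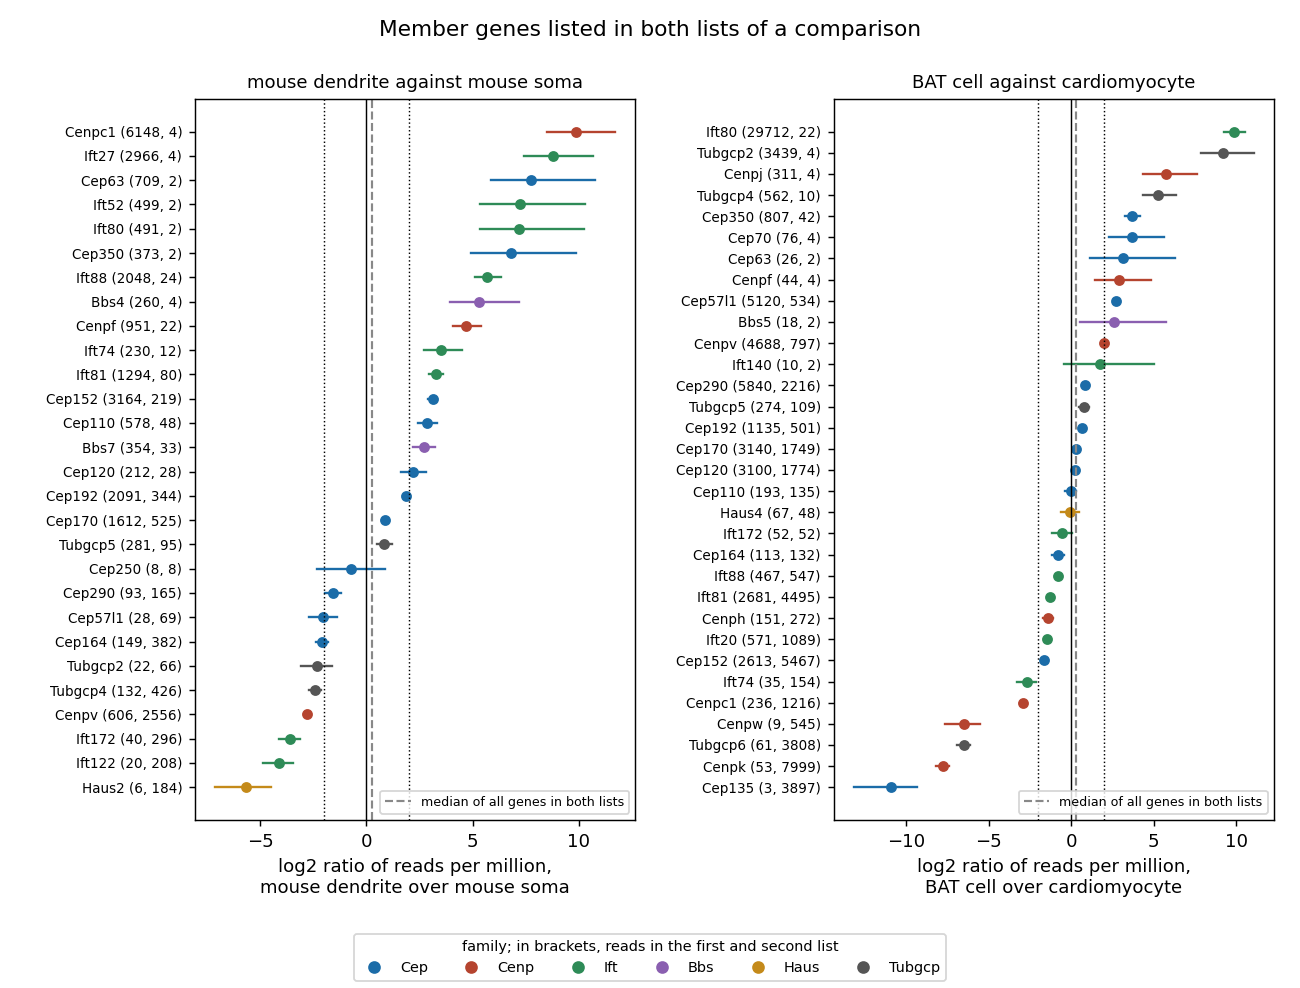
Log2 ratio of RPM for each member gene found in both lists, for mouse dendrites over somas (left, 28 genes) and BAT cells over cardiomyocytes (right, 32 genes). Points are coloured by family, lines are 95% counting intervals, dotted lines mark 4-fold, the dashed line is the median of all genes in both lists, and brackets give the reads in the first and second list. On the left 15 points lie beyond 4-fold towards dendrites and 8 towards somas.

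In rats the members were called as often in either direction. Of 25 members in the rat lists, 17 were in dendrites and 18 in somas, where all rat genes gave 78.5% and 59.4%. Among the 10 members in both, 4 were at least 4-fold higher in dendrites (35.7% of all genes) and 4 in somas (24.6% of all genes). With raw reads the split was 3 towards dendrites and 5 towards somas, where 541 and 717 of all 2166 genes in both lists were called. The median log2 ratio of dendrites over somas was −0.44 for members and 0.73 for all genes.

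Rat dendrites were higher for 3 transport genes, Ift20 (67.9-fold, interval 22.6 to 335), Ift57 (64.5 against 4.30 RPM, interval of the ratio 7.44 to 34.3) and Ift88 (11.2-fold, interval 8.16 to 15.7). Bbs7, with 4 and 2 reads, was nominally 4.16-fold higher, but its interval of 0.596 to 46.0 included no difference. Rat somas were higher for Cenpi (2289-fold, interval 894 to 8400.4), Cep290 (132-fold, interval 75.6 to 256), Cep70 (82.6-fold, interval 63.4 to 109.7) and Bbs4 (10.6-fold, interval 3.99 to 39.7). The soma reads of Cenpi and Cep70 each lay in 1 contig, of 571 and 822 nt, so the 400 nt limit of the study for somas removes both, and it also removes Cep290 intron 52 with 3234 of the 3298 soma reads of that gene. In rat somas the 5 introns with the most reads, in Cenpi, Cep70, Tubgcp5, Cep290 and Ift81, made up 93.3% of the member reads. With Cenpi intron 18 left out together with the other 9 most read introns, 4 members were higher in rat dendrites (36.1% of all genes) and 3 in somas (23.9% of all genes), and the median was 0.61 for members and 0.80 for all genes. With contigs of at most 400 nt, 5 members were left in both rat lists, of which 1 was higher in dendrites (32.8% of all genes) and 2 in somas (20.6% of all genes), while their median was 1.10 and that of all genes 0.67.

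Both dendrite lists held 14 members, 28.0% of the mouse and 82.4% of the rat dendritic members. For all genes the same shares were 32.1% and 61.6%. An intron of the same number was listed for 3 of these 14 genes, Haus1, Ift80 and Ift88, which is 21.4%, against 43.6% of all genes in both dendrite lists. Intron numbers need not mark the same intron in both species, and the rat sequence was not analysed here. Both soma lists held 11 members, of which Bbs1, Bbs4, Ift81, Ift88 and Tubgcp5 had an intron of the same number, a share of 45.5% against 38.1% of all genes in both soma lists.

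BAT cells and cardiomyocytes differ in tissue, strain, age and sorting, and these cannot be told apart. Of 63 mouse members 51 (81.0%) were in the BAT list, where all genes gave 82.0%, and 37 (58.7%) in the cardiomyocyte list, where all genes gave 49.8%. Among the 32 in both, 11 were at least 4-fold higher in BAT cells, a share of 34.4% where all genes gave 34.3%. At least 4-fold higher in cardiomyocytes were 6 members, where all genes gave 28.3%. The median log2 ratio of BAT cells over cardiomyocytes was 0.28 for members and 0.32 for all genes. With contigs of at most 400 nt, 8 of 27 members were higher in BAT cells (34.4% of all genes) and 10 in cardiomyocytes (26.9% of all genes), and the member median turned to −0.94 while that of all genes was 0.42.

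The 5 largest ratios towards BAT cells were Ift80 (923-fold, interval 609 to 1473), Tubgcp2 (587-fold, interval 229 to 2157), Cenpj (53.1-fold, interval 20.5 to 196), Tubgcp4 (38.4-fold, interval 20.7 to 80.5) and Cep350 (13.1-fold, interval 9.62 to 18.4). Cenpj, in spite of its name, acts in centriole elongation. Towards cardiomyocytes they were Cep135 (1901-fold, interval 650.1 to 9224), Cenpk (221-fold, interval 169 to 295), Tubgcp6 (91.4-fold, interval 71.0 to 119.7), Cenpw (88.6-fold, interval 46.3 to 195) and Cenpc1 (7.54-fold, interval 6.55 to 8.71). The study's 400 nt limit removes the only Tubgcp6 contig in cardiomyocytes (891 nt) and in BAT cells (868 nt). In cardiomyocytes it also removes Cep135 intron 12 (1199 nt, 3781 of 3897 reads). Cenpk introns 8 and 9 (2004 and 1036 nt) and Cenpw intron 2 (1238 nt) are lost there too. All Cenpc1 contigs of cardiomyocytes (at most 240 nt) stay. In BAT cells the limit removes Ift80 intron 8 (26577 of 29712 reads), but keeps Tubgcp2 intron 4 (363 nt, 2835 of 3439 reads). Of the 7 Cenp genes in both lists, 3 were past 4-fold towards cardiomyocytes and 3 towards BAT cells, the latter being Cenpj, Cenpf (7.52-fold) and Cenpv (4.02-fold). The cardiomyocytes had been sorted with a reporter that marks cells from S phase to mitosis, and cycling cell markers had 332 RPM there against 665 in BAT cells, with Mki67 in neither list. The order of these sums rests on Ect2, at 189 RPM in cardiomyocytes and 634 in BAT cells, whereas Top2a was at 118 and 3.19 and Kif11 at 24.8 and 23.4.

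Within a gene, the listed introns were few and mostly differed between groups. Over the 4 mouse lists, 318 member introns were listed. Of these 222 were in 1 list, 65 in 2, 26 in 3 and 5 in all 4. Introns in a single list made up 69.8% for members and 60.5% for all genes, and introns in all 4 made up 1.57% and 3.70%. The 5 introns in all 4 lists were introns 1 and 3 of Cenpv, intron 3 of Cep164, intron 7 of Cep57l1 and intron 20 of Ift88.

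**Figure D3:**
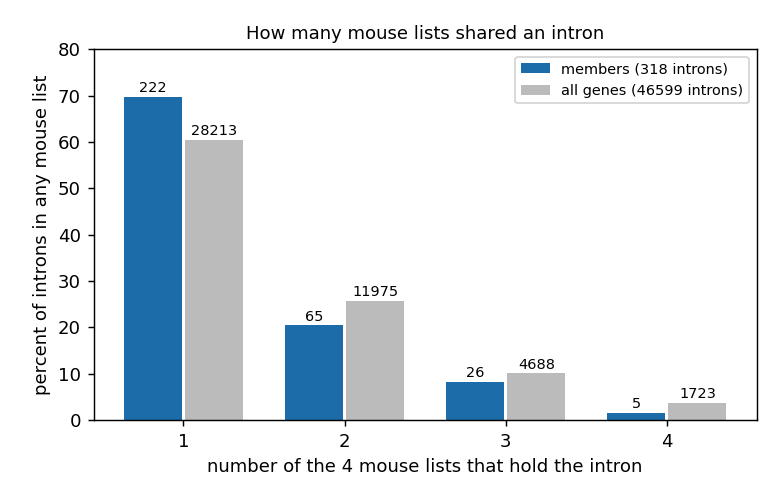
Percent of listed introns (vertical axis) that were in 1, 2, 3 or all 4 mouse lists (horizontal axis), for members in blue and all genes in grey, with the number of introns above each bar. The blue bar is above the grey bar for 1 list and below it for 2, 3 and 4 lists.

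Genes recurred more than introns did. In all 4 mouse lists were 21 member genes, 33.3% of the members, against 24.6% of all genes. Yet of the 28 members in both dendrites and somas, 16 had an intron in common (57.1%, against 73.5% of all transcripts in both). Dendrites and somas shared 23 member introns, 17.2% of those in dendrites and 36.5% of those in somas. BAT cells and cardiomyocytes shared 35, 20.0% of the former and 44.9% of the latter. The share of members with an intron in common was lowest for somas and cardiomyocytes (44.0%, against 66.9% of all transcripts) and highest for dendrites and BAT cells (63.4%, against 76.6%), and it was below that of all transcripts in each of the 6 pairs of mouse lists. Listed member transcripts had a median of 17, 18.5, 18 and 18 introns in dendrites, somas, BAT cells and cardiomyocytes. All listed transcripts had 11, 11, 10 and 11. Whether this difference bears on the sharing was not tested.

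The reads of an intron found in several lists varied widely between them. Cenpv intron 1 had 115, 1612, 1293 and 460 reads, and Cenpv intron 3 had 491, 745, 1080 and 180. Ift88 intron 20 was the steadiest of the 5, with 12, 20, 196 and 71 reads, a range of 2.82-fold in RPM. Cep164 intron 3 had 127, 202, 2 and 30 reads, and Cep57l1 intron 7 had 4, 14, 5070 and 534. Those of Cep164 ranged over 972-fold and those of Cep57l1 over 219-fold in RPM.

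The 26 introns in 3 mouse lists ranged as widely. Missing from dendrites were Cenpv 2, Cep120 19, Cep164 7, Cep170 10, Ift20 4 and 5 and Tubgcp6 3. Missing from somas were Cenpc1 7, Cenph 4, Cenpk 5, Cep170 14 and 15, Cep350 37, Haus4 5, Ift80 5, 13 and 18, Ift81 8, Ift88 23 and Tubgcp2 5. Missing from BAT cells were Cep110 6, Cep164 27 and Ift81 11, and missing from cardiomyocytes were Cep170 3, Cep57l1 8 and Ift81 5. Their range in RPM went from 2.00-fold for Ift20 intron 5 to 2181-fold for Cep170 intron 14.

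Sharing an intron did not mean sharing the same stretch of it. Of the 31 introns in 3 or 4 lists, 11 had a region that at least 3 lists covered and 1, Cenpv intron 1, had a region covered in all 4. That region measured 518 nt in an intron of 2475 nt. For 6 introns, among them 5 and 18 of Ift80 and 37 of Cep350, the contigs of the lists did not overlap at all. Counted by pairs of lists, contigs overlapped in 60.9% of the member introns shared by dendrites and somas (58.0% for all genes), in 46.8% for dendrites and BAT cells (44.0%), in 35.7% for dendrites and cardiomyocytes (44.9%) and in 68.6% for BAT cells and cardiomyocytes (65.3%). For somas with BAT cells they overlapped in 58.3% (52.4%), and for somas with cardiomyocytes in 56.2% (59.8%). The Cenpv contigs touched an annotated exon of the gene in 6 cases. Over all members this held for 31 of 512 mouse contigs (6.05%), in 15 genes, where all contigs gave 6.64%. A further 7 member contigs (1.37%) overlapped an exon of another gene, where all contigs gave 1.25%.

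Members had longer genes than most, and more of them were listed. The mouse annotation held 70 protein-coding genes that meet the rule, of which 63 were in a mouse list, and of all protein-coding genes 55.3% were. Their median span was 31.2 kb against 15.4 kb. The 7 not in a mouse list were Bbs10, Bbs12, Cenpb, Cenpn, Cenpo, Cep57 and Haus3. Of the introns of listed members 28.4% were in at least 1 mouse list, and of all listed transcripts 28.6%. Within each list the share of introns was lower for members, 13.8% against 15.7% in dendrites, 8.63% against 11.9% in somas, 17.5% against 21.6% in BAT cells and 10.8% against 14.6% in cardiomyocytes.

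Contigs of members were short next to their introns. The median length was 241 nt in mouse dendrites, 278 in somas, 255 in BAT cells and 257 in cardiomyocytes, with 337 in rat dendrites and 362 in rat somas. All contigs gave 256, 277, 273, 282, 278 and 303 nt in the same order. Over member introns of at least 16 reads the medians were longer, at 362, 413, 380, 332, 415 and 442 nt. The median member intron was covered for 11.2% of its length in dendrites, 12.3% in somas, 12.2% in BAT cells and 15.2% in cardiomyocytes, and over all genes for 8.41%, 9.14%, 13.2% and 12.5%. The longest contigs were in Cep97 intron 6 (1859 nt, dendrites), Cep152 intron 12 and Cep170 intron 13 (987 nt each, somas), Cenpv intron 1 (2013 nt, BAT cells) and Cenpk intron 8 (2004 nt, cardiomyocytes). In rats they were in Ift80 intron 4 (739 nt, dendrites) and Ift52 intron 7 (1426 nt, somas).

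Contigs also spanned whole introns. They join reads within 500 nt, so a spanned intron can hold stretches without reads. Tubgcp3 intron 15 of 652 nt, for example, was spanned in BAT cells on 3 reads. Contigs spanned at least 90% of the intron for 1 member intron in dendrites, 2 in somas, 9 in BAT cells and 8 in cardiomyocytes. As shares of the member introns these were 0.763%, 3.33%, 5.26% and 10.4%, and for all genes they were 1.16%, 2.79%, 11.9% and 11.2%. Ift20 showed this most often. Its intron 4 of 849 nt was covered for 99.9% in somas, BAT cells and cardiomyocytes with 32, 125 and 482 reads. Its last intron, number 5 of 362 nt, was covered for 99.7% in BAT cells and cardiomyocytes with 439 and 601 reads, and these contigs overlapped an annotated exon of the gene. In cardiomyocytes intron 19 of Cep290 (533 nt, 1754 reads) and intron 2 of Cenpw (1239 nt, 537 reads) were also spanned whole.

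The amplification starts from a poly(T) primer, so runs of adenine near the contigs were counted. A tract of at least 10 adenines within 300 nt downstream was found for 6.04% of member contigs in dendrites (9 of 149), 25.4% in somas (18 of 71), 5.80% in BAT cells (12 of 207) and 17.6% in cardiomyocytes (15 of 85). All contigs gave 8.11%, 18.6%, 7.36% and 9.53%. Contigs of 1 gene are not independent, and Cenpk, Haus4, Ift81 and Ift88 each gave more than 1 of the 15 in cardiomyocytes, so these shares are a description. Upstream of member contigs such tracts were found for 4.70%, 1.41%, 1.45% and 0% in the same order, where 0 of 85 cardiomyocyte contigs had one, and of all contigs for 2.80%, 2.58%, 2.56% and 2.40%. In somas 10 of the 18 tracts began less than 10 nt from the contig, as did 3 of 9 in dendrites, 4 of 12 in BAT cells and 4 of 15 in cardiomyocytes. These member shares were 55.6%, 33.3%, 33.3% and 26.7%, and over all contigs with a tract they were 61.3% in somas, 39.8% in dendrites, 38.9% in BAT cells and 50.4% in cardiomyocytes. Whether priming at these tracts gave the contigs was not tested.

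Of the 5 most read member introns, 2 in somas and 2 in cardiomyocytes ended beside such a tract. The sequences that follow these 4 contigs are shown because the tract starts within a few bases, and capitals mark the tract.
Cenpv intron 3, mouse somas, chr11:62341601-62341644, minus strand: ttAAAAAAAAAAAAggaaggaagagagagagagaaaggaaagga
Ift172 intron 16, mouse somas, chr5:31575967-31576015, minus strand: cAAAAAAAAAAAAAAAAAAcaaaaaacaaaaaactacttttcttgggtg
Ift81 intron 13, cardiomyocytes, chr5:123017992-123018056, minus strand: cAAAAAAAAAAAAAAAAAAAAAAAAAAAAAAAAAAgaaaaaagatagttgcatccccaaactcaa
Tubgcp6 intron 3, cardiomyocytes, chr15:88945535-88945582, minus strand: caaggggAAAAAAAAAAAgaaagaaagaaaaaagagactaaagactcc

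Ift81 intron 13 carried 4416 reads in cardiomyocytes in a contig of 862 nt, and 34 adenines followed after 1 base. Tubgcp6 intron 3 carried 3808 reads in a contig of 891 nt, with 11 adenines after 7 bases. In somas Ift172 intron 16 carried 296 reads with 18 adenines after 1 base, and Cenpv intron 3 carried 745 with 12 after 2 bases. Both of these introns had 2 contigs, of which the other had no such tract, and the reads are given for the intron as a whole. The dendritic contigs of Cenpc1 intron 7, Cep97 intron 6, Ift27 intron 1, Cep192 intron 12 and Cep152 intron 12, the 5 most read, had no such tract within 300 nt. That of Ift88 intron 23, whose region is shown above, had none after its end but contained the tract of 13 adenines. In BAT cells none of the 5 most read introns had one. The same held for Cenpv intron 1, Tubgcp4 intron 9 and Cep170 intron 13 in somas and for Cep152 intron 6, Cenpk intron 9 and Cep135 intron 12 in cardiomyocytes.

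**Figure D4:**
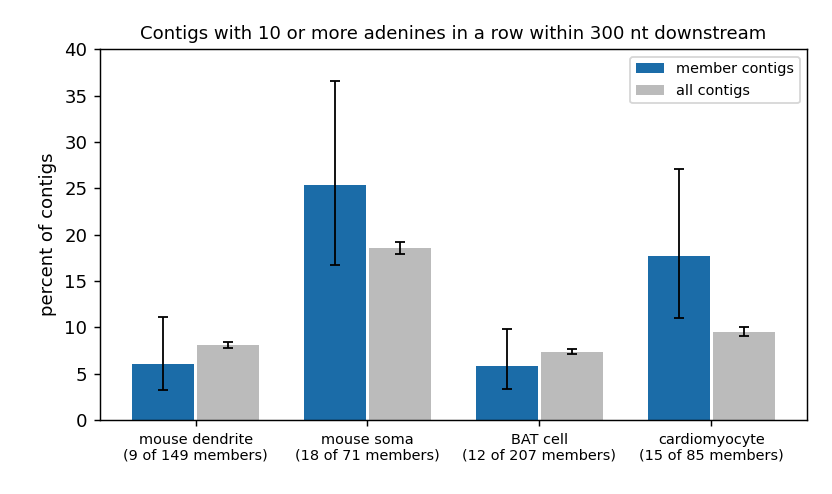
Percent of contigs (vertical axis) with at least 10 adenines in a row within 300 nt downstream, in the 4 mouse lists (horizontal axis), for member contigs in blue and all contigs in grey, with 95% Wilson intervals for counting error, which take contigs of 1 gene as independent. Members reach 25.4% in somas and 17.6% in cardiomyocytes, against 6.04% in dendrites and 5.80% in BAT cells.

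Reads were concentrated in few introns. The 5 most read member introns made up 50.3% of the member reads in mouse dendrites, 55.1% in somas, 58.0% in BAT cells, 53.3% in cardiomyocytes and 63.5% in rat dendrites. In dendrites these were introns of Cenpc1, Cep97, Ift27, Cep192 and Cep152, with 6090, 3855, 2966, 1976 and 1768 reads. In somas they were introns 1 and 3 of Cenpv, 9 of Tubgcp4, 13 of Cep170 and 16 of Ift172, with 1612, 745, 423, 312 and 296 reads. In BAT cells they were Ift80 8, Cenpq 4, Cep57l1 7, Cep290 25 and Tubgcp2 4, with 26577, 6306, 5070, 4704 and 2835 reads. In cardiomyocytes they were Cep152 6, Ift81 13, Cenpk 9, Tubgcp6 3 and Cep135 12, with 5467, 4416, 3976, 3808 and 3781 reads. Rat dendrites followed with Ift80 15, Ift88 24, Haus1 2, Ift20 5 and Ift57 10, with 399, 179, 128, 67 and 65 reads. No intron was among the 5 of more than 1 mouse list.

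Member reads made up 1.07% of the reads of the mouse dendrite list, 0.331% of somas, 0.439% of BAT cells, 0.330% of cardiomyocytes, 0.131% of rat dendrites and 1.99% of rat somas. The rat soma share rests on contigs longer than 400 nt, without which 956 of its 41681 member reads were left. Member genes made up 0.581%, 0.560%, 0.499%, 0.596%, 0.379% and 0.531% of the genes in the same order. The share of genes thus changed far less between lists than the share of reads. The median reads of a member gene were 197.5 in mouse dendrites, where all genes had 78, and 48 in somas, where all genes had 46. Rat somas had 158.5 against 54, and BAT cells, cardiomyocytes and rat dendrites had 193 against 169, 154 against 158 and 30 against 32. By intron, the member median was 19 reads against 24 in mouse dendrites, 16 against 22 in somas and 14 against 29 in BAT cells. Cardiomyocytes had 47 against 53, rat dendrites 11 against 14 and rat somas 25 against 24. In mouse dendrites members had 2.68 listed introns per gene, where all genes had 2.26.

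Other genes of the same structures were taken from fixed lists. Of 28 other centrosome genes, 20 were in mouse dendrites, 13 in somas, 22 in BAT cells, 18 in cardiomyocytes and 10 in each rat list. The most read were Poc5 in mouse dendrites (1680 reads), Nin in somas (1078 reads) and Pcm1, of the centriolar satellites, in BAT cells (20308 reads) and cardiomyocytes (6851 reads). Of 34 other cilium genes, 23 were in mouse dendrites, 13 in somas, 22 in BAT cells, 17 in cardiomyocytes, 16 in rat dendrites and 13 in rat somas. Ttc21b, a retrograde transport subunit, led in mouse dendrites with 8404 reads, Ahi1 in somas with 2066 and Arl6, which recruits the BBSome, in BAT cells with 44605. Dync2h1, the retrograde motor, led both rat lists with 1681 reads in dendrites and 1864 in somas.

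Of 31 other kinetochore genes, 17 were in mouse dendrites and 11 in somas, 18 in BAT cells and 11 in cardiomyocytes, 10 in rat dendrites and 3 in rat somas. Their summed level was 1521 RPM in mouse dendrites, 323 in somas, 376 in BAT cells and 2601 in cardiomyocytes. Kntc1 led in dendrites with 1581 reads and in cardiomyocytes with 13508, where Zwilch followed with 11480, and both proteins are subunits of the complex that brings dynein to the kinetochore. In dendrites the next were Mad1l1 and Bub1, of the spindle checkpoint, with 784 and 545 reads. In somas Itgb3bp led with 320 reads. In rat dendrites Casc5 led with 235 reads and in rat somas Ttk with 313.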

How the data were processed

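The authors trimmed paired reads of 50 bases, aligned them with the RUM pipeline to mm9 (mouse) and rn4 (rat), counted uniquely mapping intronic reads (paired-end Bowtie), removed introns with predicted genes, poly(A) sites or noncoding RNAs and joined reads within 500 nt into contigs. The counts are raw numbers of reads per intron, deposited by the authors in 6 lists without normalization, each pooling the 26 libraries by group. A count is repeated on every contig of an intron and was taken once. The labels name more libraries of BAT cells and cardiomyocytes than the paper does. Depth per library was not used in the main values. Libraries were not strand specific, so reads of overlapping genes on opposite strands cannot be told apart.

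Reads were summed by symbol and scaled to reads per 1000000 reads of the list, RPM (Python 3.11.15, pandas 2.3.3, numpy 2.4.6, scipy 1.17.1, matplotlib 3.10.9). With 1 list per group no test was made. Genes in both lists of a comparison were called at 4-fold. Intervals are 95%, Wilson for shares and exact binomial for ratios, and cover counting error only. Introns, lengths, exons and sequences of the mouse lists were taken from NCBIM37 with GENCODE vM1, an intron being matched by its number within 5 nt. Positions count from 1. Rat intron lengths and rat sequences were not analysed here, and some mouse regions are not reported here.

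Members, gene lists and tests were chosen with earlier results of these data known. Named genes were the 5 most read introns of each list, genes in all 4 mouse lists or both dendrite lists, introns in 3 or 4 mouse lists, all Bbs, Haus and Tubgcp genes, the 5 largest ratios each way, the longest contigs, the 3 genes with the most listed introns and the most read genes of the other lists. The alternatives were limits on contig length and reads, 1 transcript per symbol, symbols in any case, other scales, folds and tracts, and overlap of contigs.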

Additional observations from a re-analysis of the deposited data

How the results depend on the processing

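No paired analysis was possible because each list pools its libraries and no value per library is held, and single libraries could for the same reason not be removed. Contigs of at most 400 nt in all lists left 14707, 2353, 16577, 10383, 714 and 956 member reads in mouse dendrites, mouse somas, BAT cells, cardiomyocytes, rat dendrites and rat somas, and the same limit without dendrites gave the same values for the others. Of the 5 members then in both rat lists, 1 was higher in dendrites (32.8% of all genes) and 2 in somas (20.6%), and of 27 in both single cell lists 10 were higher in cardiomyocytes (26.9%). With at least 32 reads per intron, 32, 18 and 8 member genes remained in mouse dendrites, mouse somas and rat dendrites, and with at least 16 reads 21 in mouse somas and 9 in rat dendrites. With raw reads or with the reads sequenced, 4 of 28 members were higher in mouse somas (19.5% and 21.2% of all genes). At 8-fold 3 of 28 were higher in mouse somas (17.1% of all genes) and 7 of 32 in BAT cells (26.2%), and at 2-fold 10 of 32 in cardiomyocytes (37.1%). Counting shared introns only where contigs overlap by at least 1 base gave 14 for mouse dendrites and somas, 22 for dendrites and BAT cells, 10 for dendrites and cardiomyocytes, 14 for somas and BAT cells and 9 for somas and cardiomyocytes. Tracts of at least 8 adenines followed 11.4% of dendritic member contigs, and upstream tracts were at 1.41% in somas, 1.45% in BAT cells and 0% in cardiomyocytes. The cause of these shifts was not tested beyond the fewer reads, introns or contigs each limit keeps. Counts of member genes and introns were within 1.5 times of the reported ones under at least 4 reads, 1 transcript per symbol and symbols in any case. Introns of 2 reads, which may be 1 read pair, limit every ratio that rests on them.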
